A study of Mus musculus with 6 samples.

Results

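The 10 genes described here carry interleukin-6 (IL-6) and IL-1 signals into liver cells: the receptors Il6ra, Il6st, Osmr and Il1r1, the kinases Jak1 and Jak2, the transcription factor Stat3, the feedback inhibitors Socs3 and Socs1, and the IL-1 receptor antagonist Il1rn. They were chosen by name, as the listed parts of the acute phase cytokine pathway, from the 23284 genes counted, and all 10 were found. Of these, 9 passed the filter on low counts and were among the 12559 genes tested, and Socs1 was not. The livers came from C57BL/6 mice aged 8 weeks that had been fasted overnight and then received vehicle (3 mice) or FGF19 at 1 mg/kg (3 mice) for 6 h while the fast continued. The labels name no genetic change in either group. FGF19 is the human counterpart of mouse FGF15, a hormone released from the gut after a meal, and was given to mice with their own Fgf15 gene. Each mouse gave 1 RNA library, with total counts between 18994654 and 22920056. Whole liver was sequenced. The hepatocyte marker Alb had counts-per-million values (CPM) of 63530 to 70450 after TMM scaling, which corrects library sizes for differences in composition. In such bulk RNA a change in the number of cells of a type and a change in the RNA per cell cannot be told apart.

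IL-6 binds its receptor, the product of Il6ra, and the complex then recruits gp130, the product of Il6st, which is shared by the whole IL-6 family. Oncostatin M signals through gp130 joined to the product of Osmr. Janus kinases bound to gp130 then phosphorylate STAT3, which enters the nucleus and switches on acute phase genes together with Socs3, whose product shuts the receptor down again. IL-1 acts through the product of Il1r1 and its partner, the product of Il1rap, and through NF-kappaB, and the Il1rn product occupies the same receptor without signalling. In hepatocytes the combined action of both cytokines is the classical trigger of the acute phase response.

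After FGF19 treatment, 2 of the 9 genes tested rose, Stat3 and Il1rn, and 0 fell, by the quasi-likelihood test of edgeR at a threshold of 0.05 on p-values adjusted, by the method of Benjamini and Hochberg, for the whole table. By this rule 7.41% of all genes tested changed, with 4.56% higher and 2.84% lower. The same 2 genes were past the study's own threshold of p under 0.01, at which 11.2% of all genes tested changed, 6.2% higher and 4.98% lower, and 0 of the 9 were lower. With edgeR's likelihood ratio test, its exact test, DESeq2 and limma-voom the count of lower genes was also 0, and 1 gene, Il6ra, was lower at an unadjusted p under 0.05, as were 11.3% of all genes tested in the quasi-likelihood test. In 3 of the 9 genes the mice of the groups did not overlap, with Stat3 and Il1rn above and Il6ra below the vehicle-treated mice, where 28.3% of all genes tested did not overlap, 14.5% above and 13.8% below. The median log2 fold change of the 9 genes was 0.08, against 0.00 for all genes tested.

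**Figure D1:**
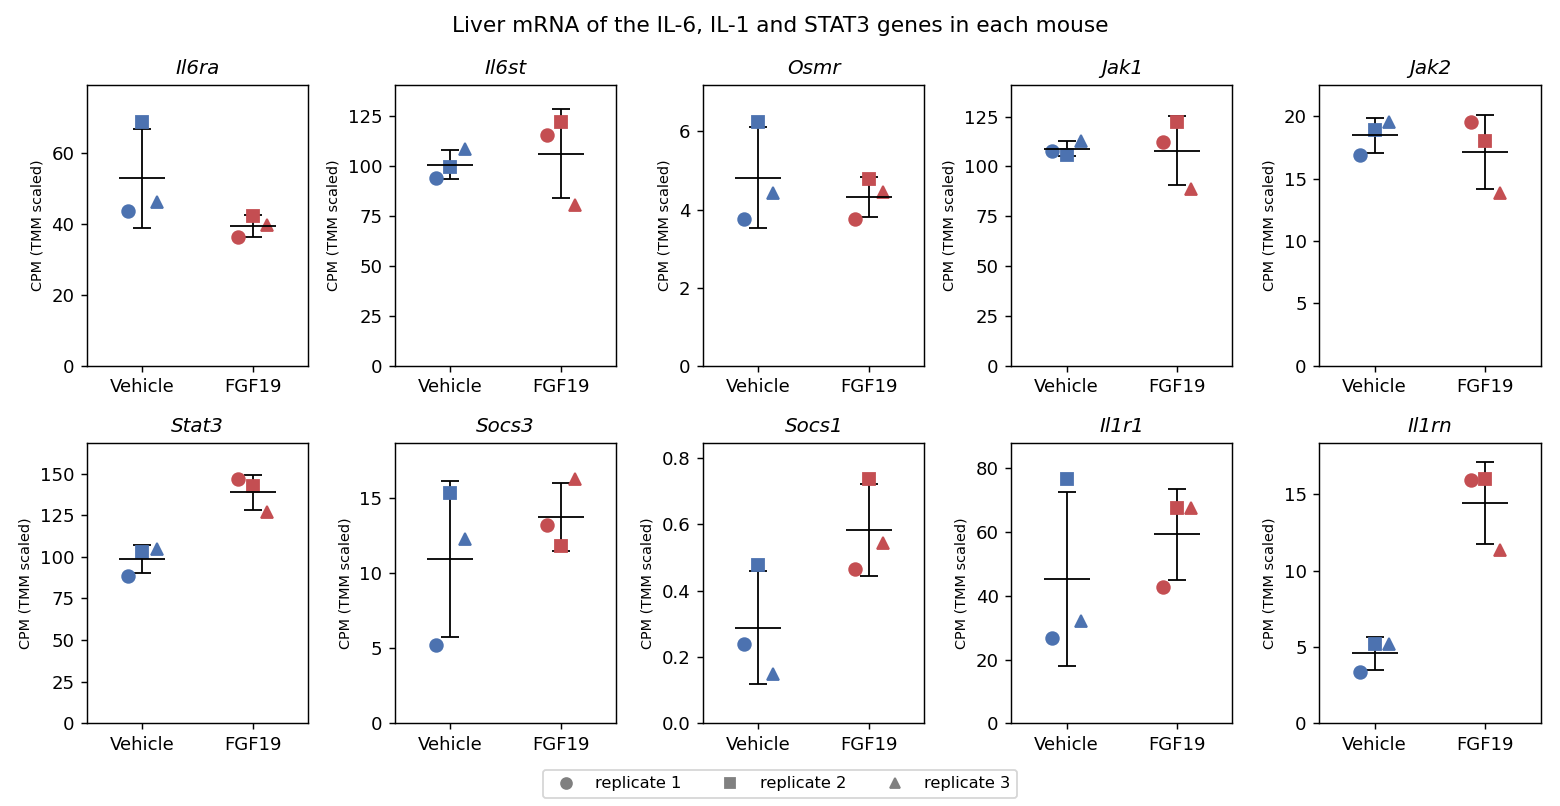
Level of each of the 10 genes in each mouse, in CPM scaled by the TMM method, with a symbol for each replicate number and the group mean with its SD as a bar (n = 3). The FGF19-treated mice lie above all vehicle-treated mice for Stat3 and Il1rn and below them for Il6ra, and for the other genes the groups overlap.

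The receptors of the IL-6 family did not pass the test. Il6ra, on chromosome 3 of mouse genome build mm9 from 89673246 to 89717084, stood at 43.7, 69.0 and 46.3 CPM in vehicle replicates 1, 2 and 3 and at 36.3, 42.4 and 39.7 CPM in FGF19 replicates 1, 2 and 3. Each FGF19-treated mouse was below each vehicle-treated mouse, by little where the lowest vehicle-treated mouse meets the highest FGF19-treated mouse, and vehicle replicate 2 was far above the other two. The means were 53.0 ± 13.9 CPM and 39.5 ± 3.05 CPM (SD, n = 3), a log2 fold change of -0.42 (95% interval -0.79 to -0.06). In the edgeR test across all genes the adjusted p was 0.157. Without vehicle replicate 2 the log2 fold change was -0.19.

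Il6st, on chromosome 13 from 113254278 to 113297068, encodes the shared subunit gp130. It was measured at 93.9, 99.1 and 108 CPM with vehicle and at 115, 122 and 80.5 CPM with FGF19. FGF19 replicates 1 and 2 were above all vehicle-treated mice and replicate 3 was below them. The log2 fold change was 0.08 (95% interval -0.25 to 0.41, adjusted p = 0.804 in the edgeR test). Without FGF19 replicate 3 it was 0.25 (adjusted p = 0.0835 in the edgeR test, the lowest of the alternatives, which reached up to 0.984). Osmr, the oncostatin M receptor on chromosome 15 from 6763577 to 6824313, stood at 3.76, 6.25 and 4.42 CPM with vehicle and 3.77, 4.78 and 4.44 CPM with FGF19. The groups overlapped, and the log2 fold change was -0.15 (95% interval -0.62 to 0.32, adjusted p = 0.732 in the edgeR test).

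The kinase genes did not pass the test either, and their intervals lay on both sides of 0. Jak1, on chromosome 4 from 100824579 to 100937887, is the main kinase of gp130. It was at 108, 106 and 113 CPM in the vehicle group and 112, 122 and 88.7 CPM in the FGF19 group, where the values lay on both sides of the vehicle-treated mice. Its log2 fold change was -0.01 (95% interval -0.28 to 0.25, adjusted p = 0.963 in the edgeR test). Its exons share 397 of 5299 bases with those of Raver2, and reads that fall on exons of both genes were left out of the counts. Jak2, on chromosome 19 from 29326318 to 29387570, was at 16.9, 18.9 and 19.6 CPM with vehicle and 19.5, 18.0 and 13.8 CPM with FGF19, with overlapping groups and a log2 fold change of -0.11 (95% interval -0.42 to 0.20, adjusted p = 0.700 in the edgeR test).

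Stat3, on chromosome 11 from 100748124 to 100800825, encodes the transcription factor at the end of this pathway. It stood at 88.7, 103 and 105 CPM in vehicle replicates 1, 2 and 3 and at 147, 142 and 127 CPM in FGF19 replicates 1, 2 and 3. Each FGF19-treated mouse was above each vehicle-treated mouse. The group means were 98.7 ± 8.66 CPM and 139 ± 10.3 CPM (SD, n = 3). This is a rise of 1.41-fold, or 0.49 on the log2 scale (standard error 0.0983, 95% interval 0.27 to 0.71, adjusted p = 0.0172 in the edgeR test). With any 1 library left out the log2 fold change lay between 0.42 and 0.56, but the call was lost in 4 of these 6 fits. Leaving out vehicle replicate 1 gave an adjusted p of 0.0638 and leaving out vehicle replicate 3 gave 0.0556, and for FGF19 replicates 1 and 2 the values were 0.0797 and 0.0667. Over all alternatives the adjusted p ran from 0.00123 to 0.0797.

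Socs3, on the same chromosome from 117827401 to 117830680, is a direct target of STAT3 and its inhibitor. It was at 5.19, 15.3 and 12.3 CPM in the vehicle-treated mice and at 13.2, 11.8 and 16.2 CPM in the FGF19-treated mice. Vehicle replicate 1 lay far below the other five mice, whose values overlapped between the groups. The means were 10.9 ± 5.19 CPM and 13.8 ± 2.27 CPM (SD, n = 3), and the log2 fold change was 0.34 (95% interval -0.37 to 1.04, adjusted p = 0.579 in the edgeR test). Without vehicle replicate 1 it was -0.0020, and over all alternatives the adjusted p lay between 0.285 and 0.996. Socs1, on chromosome 16 from 10783902 to 10785629, inhibits mainly interferon signalling. It had 5, 9 and 3 counts in the vehicle-treated mice and 10, 16 and 12 counts in the FGF19-treated mice, which is 0.288 ± 0.170 CPM and 0.581 ± 0.139 CPM (SD, n = 3). The groups overlapped in CPM, and an exact two-sided permutation test of the CPM gave p = 0.2, where 3 mice against 3 cannot give less than 0.1.

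Promoter sequence is shown for Stat3 and Il1rn, the genes that rose, and for Socs3, the classical STAT3 target. The 250 bases before each start site in RefSeq (table of build GRCm38.p6) were found once each in mm9. Capitals mark the letters TTCNNNGAA, the core that STAT factors bind, which reads the same on both strands. Of the 13 RefSeq start sites of the 10 genes, that of Socs3 alone had this motif in the 250 bases, as TTCTTAGAA starting 154 bases before the start. It occurs in 7.02% of the 32851 promoters of this length in the table. A single strict form of the NF-kappaB site, searched on both strands, was found before none of the 13 starts and occurs in 0.356% of all promoters, and other forms of the site were not searched. These are matches of letters and no measure of binding. The stretches lie at chr11:100800855-100801104 on the minus strand for Stat3, chr11:117830681-117830930 on the minus strand for Socs3, and chr2:24192130-24192379 and chr2:24200561-24200810 on the plus strand for the first and second start of Il1rn.
Stat3: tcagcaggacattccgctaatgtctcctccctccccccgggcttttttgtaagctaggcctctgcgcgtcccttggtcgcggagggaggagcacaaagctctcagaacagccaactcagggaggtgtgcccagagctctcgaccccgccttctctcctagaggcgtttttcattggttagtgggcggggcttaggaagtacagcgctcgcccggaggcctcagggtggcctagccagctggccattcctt
Socs3: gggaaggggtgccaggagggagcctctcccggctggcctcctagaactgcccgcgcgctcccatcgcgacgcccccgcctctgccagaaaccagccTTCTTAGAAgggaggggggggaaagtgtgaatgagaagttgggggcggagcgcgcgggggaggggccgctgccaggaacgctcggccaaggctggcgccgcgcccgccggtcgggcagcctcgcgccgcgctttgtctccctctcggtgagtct
Il1rn, first start: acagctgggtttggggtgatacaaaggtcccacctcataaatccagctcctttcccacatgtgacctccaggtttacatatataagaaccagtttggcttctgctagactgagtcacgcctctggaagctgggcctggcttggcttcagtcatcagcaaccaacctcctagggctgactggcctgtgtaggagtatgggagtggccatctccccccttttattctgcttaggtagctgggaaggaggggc
Il1rn, second start: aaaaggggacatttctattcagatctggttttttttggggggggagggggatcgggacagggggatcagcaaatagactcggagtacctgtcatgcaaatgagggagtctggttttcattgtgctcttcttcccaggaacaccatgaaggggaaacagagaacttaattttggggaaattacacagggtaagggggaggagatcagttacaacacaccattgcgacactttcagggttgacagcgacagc

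Il1rn showed the largest change of the 10 genes. It lies on chromosome 2 from 24192380 to 24207011 and encodes the IL-1 receptor antagonist, itself an acute phase product of liver and a product of macrophages and neutrophils. It stood at 3.34, 5.19 and 5.21 CPM in vehicle replicates 1, 2 and 3 and at 16.0, 16.0 and 11.4 CPM in FGF19 replicates 1, 2 and 3. The lowest FGF19-treated mouse was above the highest vehicle-treated mouse by more than the whole spread of the vehicle group. The means were 4.58 ± 1.08 CPM and 14.4 ± 2.66 CPM (SD, n = 3), a rise of 3.16-fold (log2 fold change 1.66, standard error 0.206, 95% interval 1.20 to 2.12, adjusted p = 0.00171 in the edgeR test). Across the 14 alternatives the log2 fold change was between 1.47 and 1.81 and the adjusted p between 1.12e-11 and 0.00996. The counts are per gene, so secreted and intracellular forms of the antagonist, which use different starts, were not separated.

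Il1r1, on chromosome 1 from 40281925 to 40373022, is the signalling receptor for IL-1. It was at 26.7, 76.5 and 32.2 CPM with vehicle and at 42.8, 67.4 and 67.4 CPM with FGF19. Vehicle replicate 2 was the highest of all 6 mice, and the other vehicle-treated mice were below all FGF19-treated mice. The means were 45.1 ± 27.3 CPM and 59.2 ± 14.2 CPM (SD, n = 3), a log2 fold change of 0.39 (95% interval -0.39 to 1.18, adjusted p = 0.557 in the edgeR test). The value moved with the vehicle-treated mouse left out. It was 0.13 without vehicle replicate 1 and 0.20 without vehicle replicate 3, while without vehicle replicate 2 the log2 fold change was 1.01 and the adjusted p 0.0269 in the edgeR test, at the low end of a range over the alternatives that reached 0.876.

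**Figure D2:**
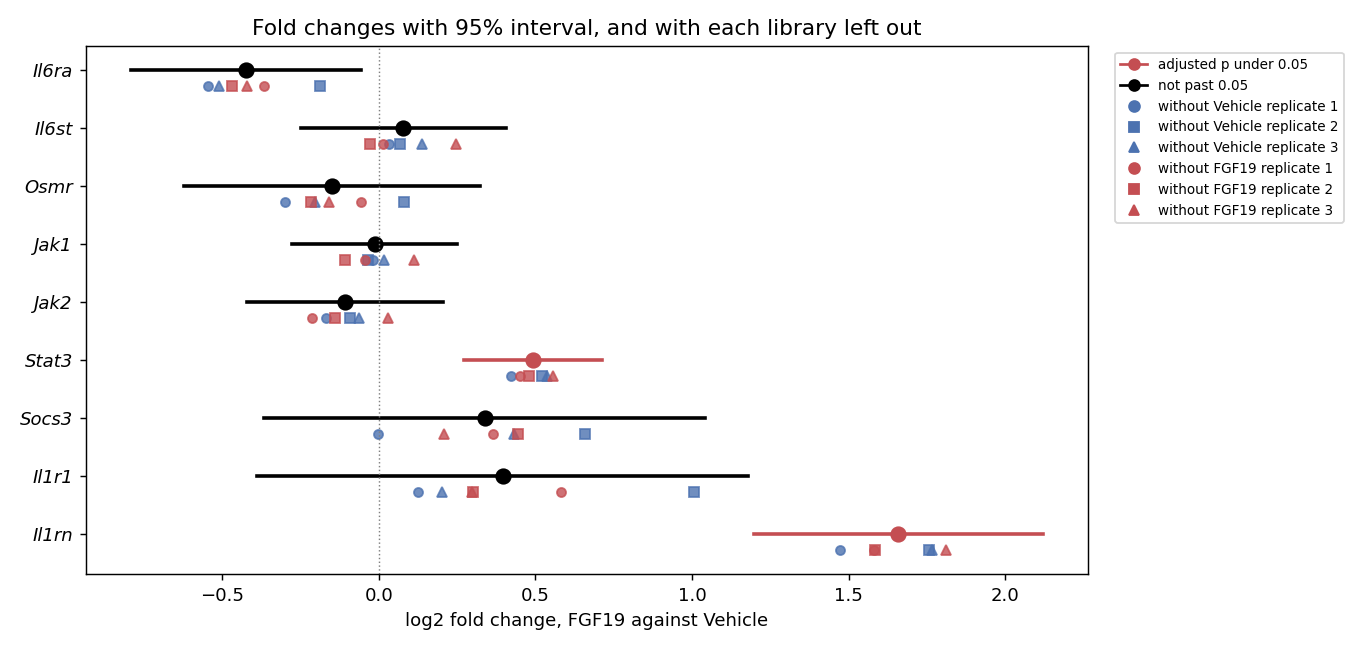
The log2 fold change of FGF19 against vehicle for the 9 genes tested (circle) with its 95% interval (line, red where the adjusted p is under 0.05), and below each line the value with 1 library left out. Il1rn and Stat3 stay on the same side of 0 throughout, and the value of Il1r1 moves from 0.39 to 1.01 without vehicle replicate 2.

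Some mice lay at the edge of their group for many of these genes. Vehicle replicate 1 was the lowest of its group in 8 of the 10 genes, all but Jak1 and Socs1. Vehicle replicate 2 was the highest in 5, Il6ra, Socs3, Socs1, Il1r1 and Osmr, and vehicle replicate 3 in the other 5. In the FGF19 group, replicate 2 was the highest in 7, all but Jak2, Stat3 and Socs3, and replicate 3 was the lowest in 5, Il6st, Jak1, Jak2, Stat3 and Il1rn, and this library also had the largest total count and the lowest TMM factor (0.964). The part of these differences between libraries in the results was not tested.

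Levels of different genes can be compared only per length, and CPM per kilobase of exon were used for this. In vehicle-treated mice Stat3 was the most abundant (22.0 ± 1.93, SD, n = 3), followed by Jak1 (20.5 ± 0.714), Il6st (18.4 ± 1.32), Il6ra (15.8 ± 4.17), Il1r1 (8.96 ± 5.42), Socs3 (4.01 ± 1.91), Jak2 (3.67 ± 0.272), Il1rn (1.70 ± 0.401), Osmr (0.995 ± 0.267) and Socs1 (0.236 ± 0.139). The mice of neighbours in this order overlapped, and their levels did not differ beyond the spread, except between Jak1 and Il6st, Jak2 and Il1rn, and Osmr and Socs1. For Jak1 and Il6st the gap was small, with the lowest Jak1 at 19.93 and the highest Il6st at 19.83. With FGF19 the values of Jak1 and Il6st overlapped. The low level of Osmr beside Il6ra and Il6st held in both groups. In FGF19-treated mice Il1rn (5.37 ± 0.989, SD, n = 3) stood above Socs3 (5.05 ± 0.834) and Jak2 (3.40 ± 0.586), with overlapping values for Il1rn and Socs3. Stat3 (30.9 ± 2.31) then lay apart from Jak1 (20.4 ± 3.26).

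**Figure D3:**
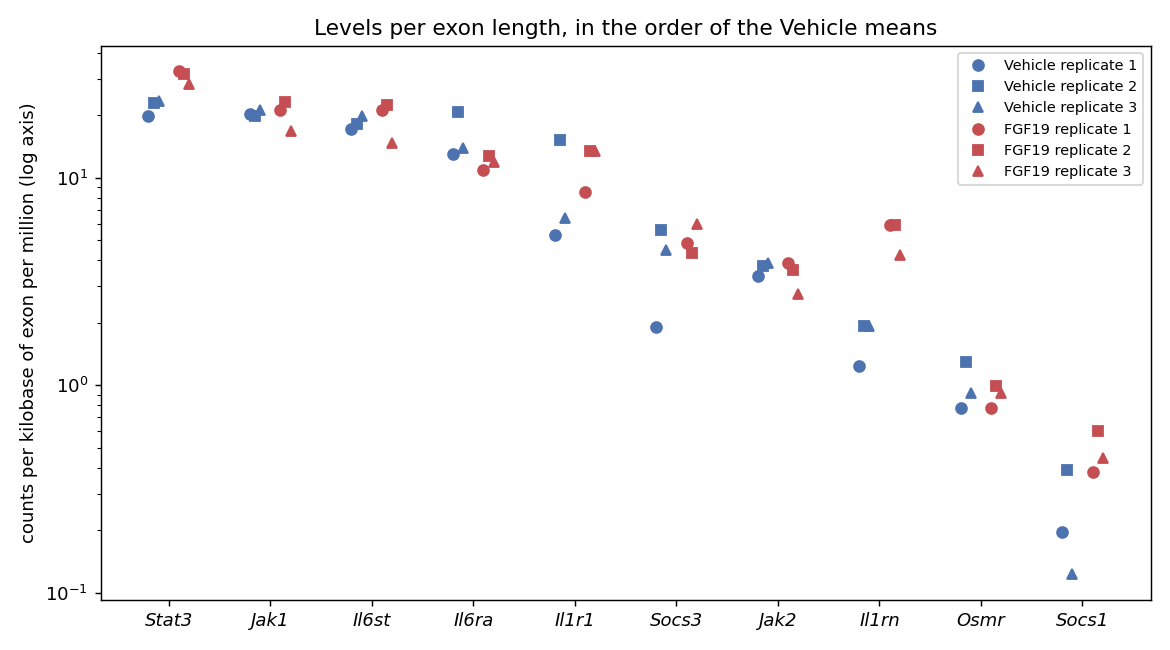
CPM per kilobase of exon (log axis) of the 10 genes in each mouse, in the order of the vehicle means, with a symbol for each replicate number. Stat3, Jak1, Il6st and Il6ra are the most abundant and Socs1 the least, and Il1rn moves from the eighth to the sixth place with FGF19.

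Ratios of 2 genes within a library do not depend on the scaling between libraries. The ratio of antagonist to receptor, Il1rn to Il1r1 per length, was 0.233, 0.127 and 0.303 in the vehicle-treated mice and 0.697, 0.444 and 0.315 in the FGF19-treated mice, with no overlap. It was 2.21-fold higher with FGF19, and its exact two-sided permutation p of 0.1 is the smallest that 3 mice against 3 can give (adjusted p = 0.5 over the 5 ratios). The ratio of the IL-6 receptor to its partner, Il6ra to Il6st, was 0.758, 1.14 and 0.699 with vehicle and 0.514, 0.567 and 0.804 with FGF19, and the groups overlapped (exact permutation p = 0.3). Socs3 to Stat3, a measure of the feedback gene against its activator, was 0.0964, 0.246 and 0.193 with vehicle and 0.148, 0.137 and 0.211 with FGF19 (exact permutation p = 1). The ratios of Osmr to Il6st and of Socs3 to Socs1 overlapped as well (exact permutation p = 0.5 and 0.4).

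Of the 10 IL-6 family ligand genes listed, 7 had too few counts to be tested and 3 were tested. Il6 had 0 counts in the vehicle-treated mice and 1 count in 1 FGF19-treated mouse, where an empty count leaves room for 3 counts, equal to 0.131 to 0.158 CPM in these libraries. Oncostatin M (Osm) had 1 count in all 6 libraries together, leptin (Lep) had 0, and Il27 had 0 with vehicle and 3 with FGF19. Il11 had 1 and 5 counts in the groups, Lif had 3 and 10, and Cntf, which shares 979 of its 1205 exon bases with another gene, had 21 and 10. Ebi3, a subunit of IL-27, rose from 0.672 ± 0.409 CPM to 2.08 ± 0.305 CPM (SD, n = 3; log2 fold change 1.61, adjusted p = 0.0300 in the edgeR test), a call that was lost in 4 of the 6 fits with a library left out, namely vehicle replicate 2 or 3 or FGF19 replicate 1 or 2. Without vehicle replicate 1 its log2 fold change was 2.24. Ctf1, with the highest CPM of the list at 5.29 ± 0.420 CPM and 4.72 ± 0.532 CPM (SD, n = 3), and Clcf1 did not pass the test (adjusted p = 0.595 and 0.466). Cytokine made outside the liver is not seen in these data.

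On the IL-1 side, 2 of the 12 adaptors and kinases tested and 1 of the 7 ligands and receptors tested rose, and 1 of these 7 fell, where 4.56% of all genes tested were higher and 2.84% lower. With a library left out these counts were between 1 and 3 for the adaptors and kinases, between 0 and 1 for the ligands and receptors that rose and between 0 and 2 for those that fell, with both highest counts, 3 and 2, without FGF19 replicate 3. Irak3, a kinase relative that holds back signalling from the IL-1 receptor, rose from 0.974 ± 0.213 CPM to 6.33 ± 1.14 CPM (SD, n = 3), a log2 fold change of 2.70 (adjusted p = 0.000252 in the edgeR test), the largest of its list. Irak2, a positive mediator, rose from 27.2 ± 2.57 CPM to 43.7 ± 7.17 CPM (SD, n = 3; adjusted p = 0.0140 in the edgeR test, and between 0.000145 and 0.0572 over the alternatives, with the highest without vehicle replicate 1). The other 10 did not pass, and Tab2, with the highest CPM, had a log2 fold change of 0.16. Il18bp, which neutralises IL-18, rose (log2 fold change 0.62, adjusted p = 0.0267 in the edgeR test), and Il1rap, the accessory subunit of the IL-1 receptor, fell from 201 ± 6.49 CPM to 160 ± 7.07 CPM (SD, n = 3; log2 fold change -0.33, adjusted p = 0.0388). The genes for the IL-1 receptor's own ligands, named after their values were seen, did not pass. Il1a had 63, 35 and 25 counts with vehicle and 53, 57 and 70 with FGF19 (log2 fold change 0.43, adjusted p = 0.444 in the edgeR test), and its exons share 222 of 1974 bases with those of another gene. Il1b had 23, 24 and 9 counts with vehicle and 20, 25 and 17 with FGF19 (log2 fold change 0.02, adjusted p = 0.984), so the groups overlapped for both. The calls of Il18bp and Il1rap rest on the full set of mice. That of Il18bp was lost in 4 of the 6 fits with a library left out (without vehicle replicate 1 or 3, or FGF19 replicate 1 or 2) and that of Il1rap in 5 (all but the fit without FGF19 replicate 3). In these fits the log2 fold change of Il18bp was between 0.51 and 0.75 and that of Il1rap between -0.35 and -0.29.

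Among the other JAK and STAT genes, Jak3, the kinase of the common gamma chain receptors, rose from 10.8 ± 0.345 CPM to 18.9 ± 0.823 CPM (SD, n = 3; log2 fold change 0.81, adjusted p = 0.00197 in the edgeR test), and its exons share 406 of 4085 bases with those of Insl3. Stat6, with the highest CPM of the list, was at 68.3 ± 1.85 CPM and 69.1 ± 3.61 CPM (SD, n = 3; adjusted p = 0.926). Beside 4.56% of all genes tested higher and 2.84% lower, among 16 other inhibitors 0 rose and 2 fell, Socs2 and Cish, which are known as targets of STAT5 in the growth hormone pathway, with log2 fold changes of -2.12 and -2.07 (adjusted p = 0.000485 and 0.00662 in the edgeR test). The values of Cish were 9.30 ± 1.70 CPM and 2.21 ± 1.29 CPM (SD, n = 3). The inhibitor with the highest CPM, Ptpn11, was at 74.5 ± 3.98 CPM and 73.8 ± 4.66 CPM (SD, n = 3; adjusted p = 0.952). None of the 6 other IL-6 family receptors tested passed, among them the leukemia inhibitory factor receptor Lifr at 120.1 ± 12.4 CPM and 118 ± 13.5 CPM (SD, n = 3), nor did any of the 7 genes of receptor shedding and processing, of which Adam10 had the highest CPM. At an unadjusted p under 0.05 these lists held 1 gene (Csf3r) and 2 genes (Rhbdf1 and Pycard), all higher and named after their values were seen, where 11.6% of all genes tested were higher and 11.3% lower. Csf3r was also past the study's threshold of p under 0.01. By edgeR's likelihood ratio test each list had 1 gene called higher, by its exact test the receptor list had 1 and the shedding list 0, and by DESeq2 and limma-voom both had 0.

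Of 16 intracellular targets tested, 1 rose and 1 fell, close to the 4.56% higher and 2.84% lower among all genes tested. With a library left out, between 0 and 2 rose and between 0 and 2 fell. Ccnd1, cyclin D1, rose (log2 fold change 0.65, adjusted p = 0.0318 in the edgeR test). Its call was lost in 5 of the 6 fits with a library left out, all but that without FGF19 replicate 3. In these fits the log2 fold change of Ccnd1 was between 0.53 and 0.74. Myc fell from 12.4 ± 5.16 CPM to 4.63 ± 0.378 CPM (SD, n = 3; log2 fold change -1.42, adjusted p = 0.0128), a call lost when FGF19 replicate 1 or 2 was left out (0.0501 and 0.0534, with the alternatives reaching down to 2.74e-06). Without vehicle replicate 3 the log2 fold change of Myc was -1.02. Cebpb, with the highest CPM, was at 188 ± 58.6 CPM and 199 ± 23.7 CPM (SD, n = 3; adjusted p = 0.856). The median log2 fold change of these 16 genes was 0.05. Of 12 secreted acute phase genes that respond to IL-6, 11 rose and 0 fell, with a median of 1.32. Those at the top were A2m, Serpina3n, Itih4 and Fga, with log2 fold changes of 3.52, 2.41, 1.61 and 1.61, and Fga also had the highest CPM, which is not scaled for length, at 4439 ± 625 CPM and 13520 ± 651 CPM (SD, n = 3). A2m was rare, at 0.148 ± 0.0423 CPM and 1.78 ± 1.38 CPM (SD, n = 3), and its call was lost without vehicle replicate 1, 2 or 3. Without FGF19 replicate 3 its log2 fold change was 2.72. Hamp, hepcidin, was the gene of this list that did not pass (log2 fold change -0.62, adjusted p = 0.195), and it was named after its value was seen. All 9 acute phase genes listed as driven by IL-1 and IL-6 rose, with a median of 5.68. They were led by Saa2, Saa1, Lcn2 and Saa3 with log2 fold changes of 8.28, 6.65, 6.61 and 6.26. C3, the central complement component, had the highest CPM of this list and a log2 fold change of 0.58 (adjusted p = 0.0280 in the edgeR test). Its call was lost in 5 of the 6 fits with a library left out, all but that without FGF19 replicate 3. In these fits its log2 fold change was between 0.51 and 0.70. The Saa genes hold near-identical stretches, and since reads that align to several places were left out of the counts, the level of each is uncertain. The share of genes called higher in each acute phase list can be read against the 4.56% of all genes tested, and the difference between the lists was not tested.

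**Figure D4:**
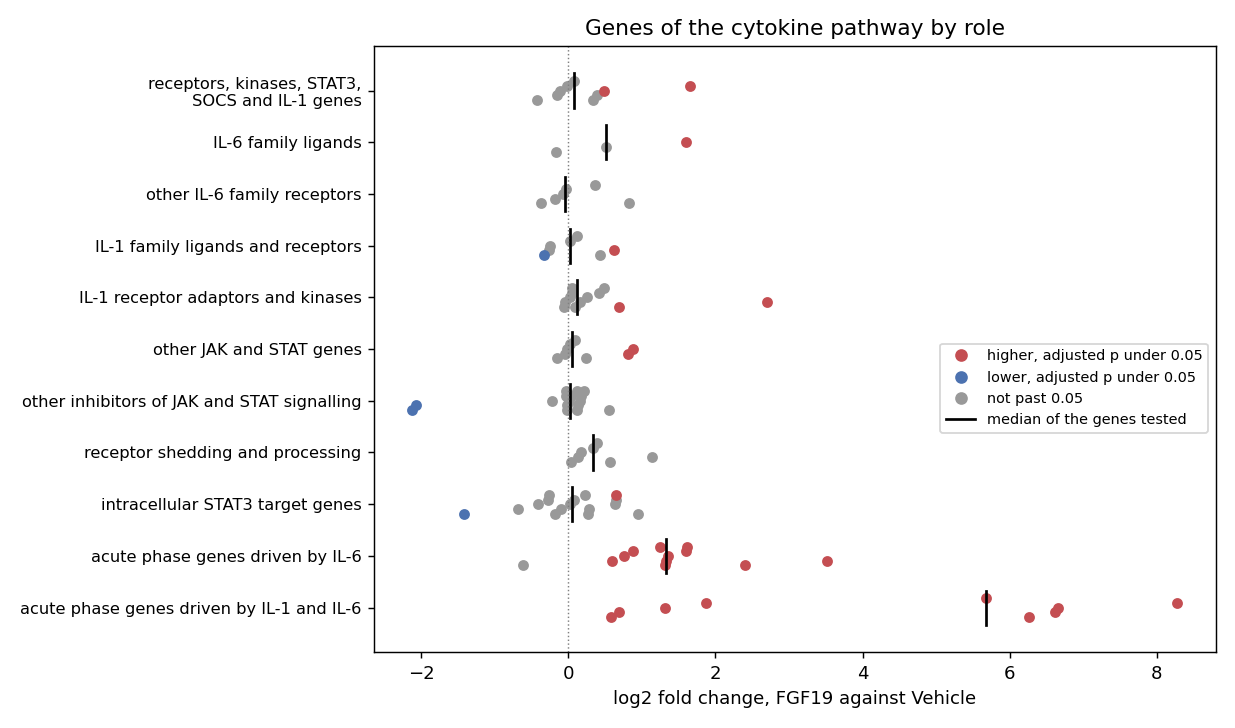
The log2 fold change of each tested gene of the pathway, grouped by role, with the median of each group as a black line and genes at an adjusted p under 0.05 in red (higher) or blue (lower). The 2 groups of acute phase genes lie far to the right (medians 1.32 and 5.68), and the medians of the other 9 groups lie between -0.05 and 0.51.

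Markers of other cells that express these genes were measured in the same libraries. The 10 neutrophil and monocyte markers summed to between 3.96 and 5.71 CPM in vehicle-treated mice and between 12.4 and 16.2 CPM in FGF19-treated mice. Of the 5 tested, 2 rose (4.56% of all genes tested were higher), Itgam (0.635 ± 0.366 CPM to 4.61 ± 0.353 CPM, SD, n = 3; adjusted p = 0.00101 in the edgeR test) and S100a9 (adjusted p = 0.0292, lost without vehicle replicate 1 or 2 or FGF19 replicate 1 or 2, and with a log2 fold change of 2.16 that was 3.28 without vehicle replicate 3). None of the 10 was at 0 in all libraries, and the neutrophil granule gene Camp had 1 count in all 6 libraries together. The 11 Kupffer cell and macrophage markers summed to 307 to 367 CPM with vehicle and 300.1 to 371 CPM with FGF19. Of these, 2 rose, Marco (log2 fold change 2.29, adjusted p = 0.00105 in the edgeR test) and Cd68 (0.66, adjusted p = 0.00932), and none was at 0 in all libraries. The median log2 fold change of the 11 was 0.04. The 9 that did not pass went both ways, from Vsig4 (-0.54, adjusted p = 0.0755 in the edgeR test, with the FGF19-treated mice below all vehicle-treated mice) to Emr1 (0.36, adjusted p = 0.155, with the FGF19-treated mice above them), both named after their values were seen. The sums of the hepatocyte, endothelial cell, stellate cell, cholangiocyte, lymphocyte and red blood cell markers overlapped between the groups, and 4 of the 5 red blood cell genes, the globins, are listed at 0 in all libraries. The exons of Hba-a1 and Hba-a2 share 1112 bases and those of Hbb-b1 and Hbb-b2 share 606, and reads on exons of both genes were left out of the counts, so the red blood cell sum is that of Alas2 alone (log2 fold change -0.51, adjusted p = 0.0645 in the edgeR test). Among these lists 1 gene passed, the endothelial gene Cdh5 (log2 fold change 0.43, adjusted p = 0.0275 in the edgeR test). Its call was lost in 5 of the 6 fits with a library left out, all but that without FGF19 replicate 3. In these fits the log2 fold change of Cdh5 was between 0.38 and 0.50. Il1rn, Irak3 and the sum of the neutrophil and monocyte markers were all higher with FGF19, but with 2 groups any genes that rose go together. The part of any cell type in the rise of Il1rn and Irak3 was not tested.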

How the data were processed

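Alignment by the authors used STAR, reads on exons of an mm9 annotation were summed with featureCounts 1.5.2, and the deposited value of each gene is the raw count of reads. Per the file headers, strand was not used, mates were counted as separate reads, and reads that align to several places were left out. The STAR version is given differently by the sources. Columns of the authors' own comparison (fold changes, p-values) were not used. Testing used edgeR 4.0.16 under R 4.3.3. Low genes were removed by filterByExpr and the others were scaled by TMM and tested with the quasi-likelihood test without covariates, since the methods state an edgeR pipeline. Totals per mouse were 18994654 to 22920056, and an empty count leaves room for 3 counts, for counting error only. The genes, the lists and the tests were chosen with earlier results of these data known. Named were all 10 genes and, in each list, genes at an adjusted p under 0.05 (at most 4), the gene with the highest mean CPM and every IL-6 family ligand, except 1 gene that is not reported here. Emr1 was matched to Adgre1 by its RefSeq synonym. Alternatives were DESeq2 1.42.0, no TMM, no filter, the likelihood ratio and exact tests, a minimum of 1 CPM in each library, limma-voom (limma 3.58.1), a replicate block and each library left out. The functions were tested on simulated data.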

Additional observations from a re-analysis of the deposited data

How the results depend on the processing

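Il1rn kept its direction and its call in all 14 alternatives, and Stat3 kept its direction in all 14 and its call in 9. The number of the 9 genes that rose at an adjusted p under 0.05 was 2, and between 1 and 3 with a library left out, because of Stat3 and, without vehicle replicate 2, Il1r1. At p under 0.01 it was between 2 and 3, and the number that fell was between 0 and 1, the 1 being Il6ra without vehicle replicate 1. With a replicate block the number that rose was 1 at an adjusted p under 0.05, with 0.0595 for Stat3. In this edgeR fit the calls of Il1rap, Ccnd1, C3 and Cdh5 were lost too, with adjusted p of 0.131, 0.0887, 0.063 and 0.0878. The replicate numbers are not taken to pair the mice. Same-numbered libraries correlated at -0.048, -0.227 and -0.208 in their deviations from the group means, and no library correlated best with its own number.

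The direction of 5 genes turned. With a library left out, log2 fold changes were between -0.0289 and 0.25 for Il6st, between -0.11 and 0.11 for Jak1, between -0.21 and 0.0286 for Jak2, between -0.00201 and 0.66 for Socs3 and between -0.30 and 0.0813 for Osmr. Log2 ratios turned too, between -0.391 and 0.03 for Osmr to Il6st and between -0.425 and 0.25 for Socs3 to Stat3. The cause was not tested. Of the 11 genes called in the lists outside the acute phase, 4 (Irak3, Jak3, Cish and Socs2) were called in every alternative that tested them, and of 20 acute phase genes 17 were. Socs1 and 7 of the 10 IL-6 family ligands had too few counts to be tested.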
